A study of Mus musculus with 12 samples.

Results

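The 10 genes described here are Btg1, Btg2, Klf2, Klf3, Klf6, Foxo1, Foxp1, Tcf7, Lef1 and Satb1, regulators of T cell quiescence and of the naive T cell state. They were chosen by symbol from the 45796 genes of the deposited table, where each has 1 line, and 9 of the 10 were abundant enough to be tested, among 1571 tested genes in all. Expression was measured in gamma delta T cells carrying the Vg4 and Vd4 receptor chains, sorted from skin-draining lymph nodes of mice of the C57BL/6 strain. The 12 libraries form 4 groups of 3: wild-type mice given sham cream, wild-type mice given imiquimod cream, mice deficient in NF-kB1 given sham cream, and mice deficient in NF-kB1 given imiquimod cream. Imiquimod activates Toll-like receptors and is used on mouse skin to model psoriasis, and NF-kB1 is the protein p105, the source of the NF-kB subunit p50. All 4 groups share strain, tissue and sort. The sources used here do not give the mutant allele, the ages of the mice or the number of applications. They also do not say whether the replicates of a group are separate animals. The p-values then measure only how far these libraries spread, which may be technical.

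A resting T cell keeps a small, slow-dividing and long-lived state by active means. Btg1 and Btg2 bind the CCR4-NOT complex and promote deadenylation and decay of messenger RNA. The zinc finger factor Klf2 and the forkhead factor Foxo1 maintain genes of lymph node homing and survival such as S1pr1, Ccr7 and Il7r. Foxp1 restrains activation of naive T cells, Tcf7 and Lef1 are the HMG-box factors downstream of Wnt signalling that T cell development depends on, and Satb1 organises chromatin in thymocytes and T cells. Activation of a T cell commonly lowers several of these transcripts in favour of growth and division.

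The start regions are shown for 3 of the genes: Btg1, the member called in the most comparisons, its relative Btg2, which was called in none, and Satb1, the only one of the 10 with an NF-kB consensus match in this window. Each run is the 250 bases before an annotated transcript start (RefSeq, GRCm38.p6), 5′ to 3′ on the gene's own strand, and overlaps no annotated exon. Capitals mark matches, on either strand, to the NF-kB consensus, the Klf-type motif CACCC, the forkhead-type motif TGTTTAC and the Tcf/Lef-type motifs CTTTGAA and CTTTGTT.
Btg1, plus strand, chr10:96616751-96617000: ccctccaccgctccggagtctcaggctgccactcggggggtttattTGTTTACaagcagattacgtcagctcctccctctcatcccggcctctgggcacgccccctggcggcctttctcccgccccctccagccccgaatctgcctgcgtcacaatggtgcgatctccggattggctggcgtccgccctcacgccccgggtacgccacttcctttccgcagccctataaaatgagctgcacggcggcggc
Btg2, minus strand, chr1:134079156-134079405: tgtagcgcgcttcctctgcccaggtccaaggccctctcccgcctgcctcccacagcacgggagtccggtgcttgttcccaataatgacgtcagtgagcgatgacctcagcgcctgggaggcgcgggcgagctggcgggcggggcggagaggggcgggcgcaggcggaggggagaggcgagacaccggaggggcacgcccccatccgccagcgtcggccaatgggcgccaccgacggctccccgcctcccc
Satb1, minus strand, chr17:51833291-51833540: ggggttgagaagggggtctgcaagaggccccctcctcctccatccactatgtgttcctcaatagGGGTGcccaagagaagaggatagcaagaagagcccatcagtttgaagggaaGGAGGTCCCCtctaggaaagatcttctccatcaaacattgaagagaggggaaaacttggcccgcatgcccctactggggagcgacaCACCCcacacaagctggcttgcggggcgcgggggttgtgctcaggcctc
The Btg1 run holds 1 forkhead-type match, whose first base lies 204 bases before the start. The Btg2 run holds none of the motifs. The Satb1 run holds the NF-kB consensus match GGAGGTCCCC, 135 bases before the start and read on the opposite strand, and CACCC or its complement at other places, none overlapping another. Satb1 has further annotated starts. The window of 1 of them, chr17:51832648-51832897, overlaps an annotated exon and holds the NF-kB consensus match GGGGCGCCCC. A gene with more starts has more windows in which a match can fall. All 10 genes were matched in the RefSeq table, with 20 windows between them. Gene positions below are from RefSeq on the same build. Over all their windows the NF-kB consensus was found in 1 of the 10 genes, against 8.23% of 27025 genes, and TGTTTAC in 1 against 3.54%. CACCC was found in 6 of the 10 against 54.5%, CTTTGAA in 1 (Foxp1) against 5.19%, and CTTTGTT in 2 (Foxp1 and Satb1) against 5.77%. A match describes the letters of the window and shows neither binding nor a cause.

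Depth sets how finely these genes can be read. Low values fell on steps, from which 20507 to 69454 reads on genes were inferred for the libraries, with the wild-type imiquimod libraries at 20507 to 35611 and the NF-kB1-deficient imiquimod libraries at 45957 to 67043. Depth therefore moves with genotype under imiquimod, and its part in the differences between these groups was not tested. A read was worth 0.488 to 1.98 normalized units, and the table holds no value between 0 and 1. A listed 0 can therefore hide 1 read in the 5 libraries where a read was worth under 1: replicate 2 of wild-type sham, replicate 1 of NF-kB1-deficient sham and all 3 libraries of NF-kB1-deficient imiquimod. In the first of these, with reads worth 0.488, it can hide 2. Tcrd, the delta chain locus, was above 0 in all 12 libraries (14.2 to 76.8), while Trdc, Tcrg-V4, Tcrg-C1 and Trdv4 were listed at 0 in all of them. Cd3d was above 0 in 10 libraries, Cd247 in 9, and Cd3e and Cd3g in 7 each. Of 8 markers of IL-17-type gamma delta T cells, Il17a and Il1r1 were at 0 throughout and 6 were above 0 in some library. Il17f was at 0, 6.32 and 33.7 in wild-type imiquimod, at 5.51, 0 and 5.51 in deficient imiquimod, and at 0 in all sham libraries. Of markers of other cells, Cd79a, Ms4a1, Lyz2, Csf1r, Itgax, Cd4, Trac, Trbc1 and Trbc2 were listed at 0 throughout. Among the 9 B and plasma cell markers 6 were at 0 in every library and the list summed to at most 7.14, and among the 10 of macrophages, monocytes and dendritic cells 7 were at 0 and the list summed to at most 21.8. Of the 8 alpha beta T cell markers 4 were at 0 in every library, and the list summed to 60.6 to 110 because Tcrb, the beta chain locus, stood at 57.4 to 103 in all 12. Tcra was above 0 in 11 libraries (up to 14.2), Cd8b1 in 8 (up to 17.3) and Cd8a in 3 (up to 2.60). The part of alpha beta T cells in the values below was not tested. In bulk RNA such as this, fewer cells of a kind and less RNA per cell cannot be told apart.

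Imiquimod in wild-type mice went with lower values for most of the 10 genes. Together they took 0.545% to 0.875% of a library's summed normalized value in wild-type sham and 0.152% to 0.340% in wild-type imiquimod. In NF-kB1-deficient mice the share was 0.605% to 0.835% in sham and 0.632% to 0.757% in imiquimod. The 3 wild-type imiquimod libraries thus lay below the other 9. These sums are dominated by the abundant members, and Klf6 alone made up 152 of the 304 units of wild-type sham replicate 3.

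**Figure D1:**
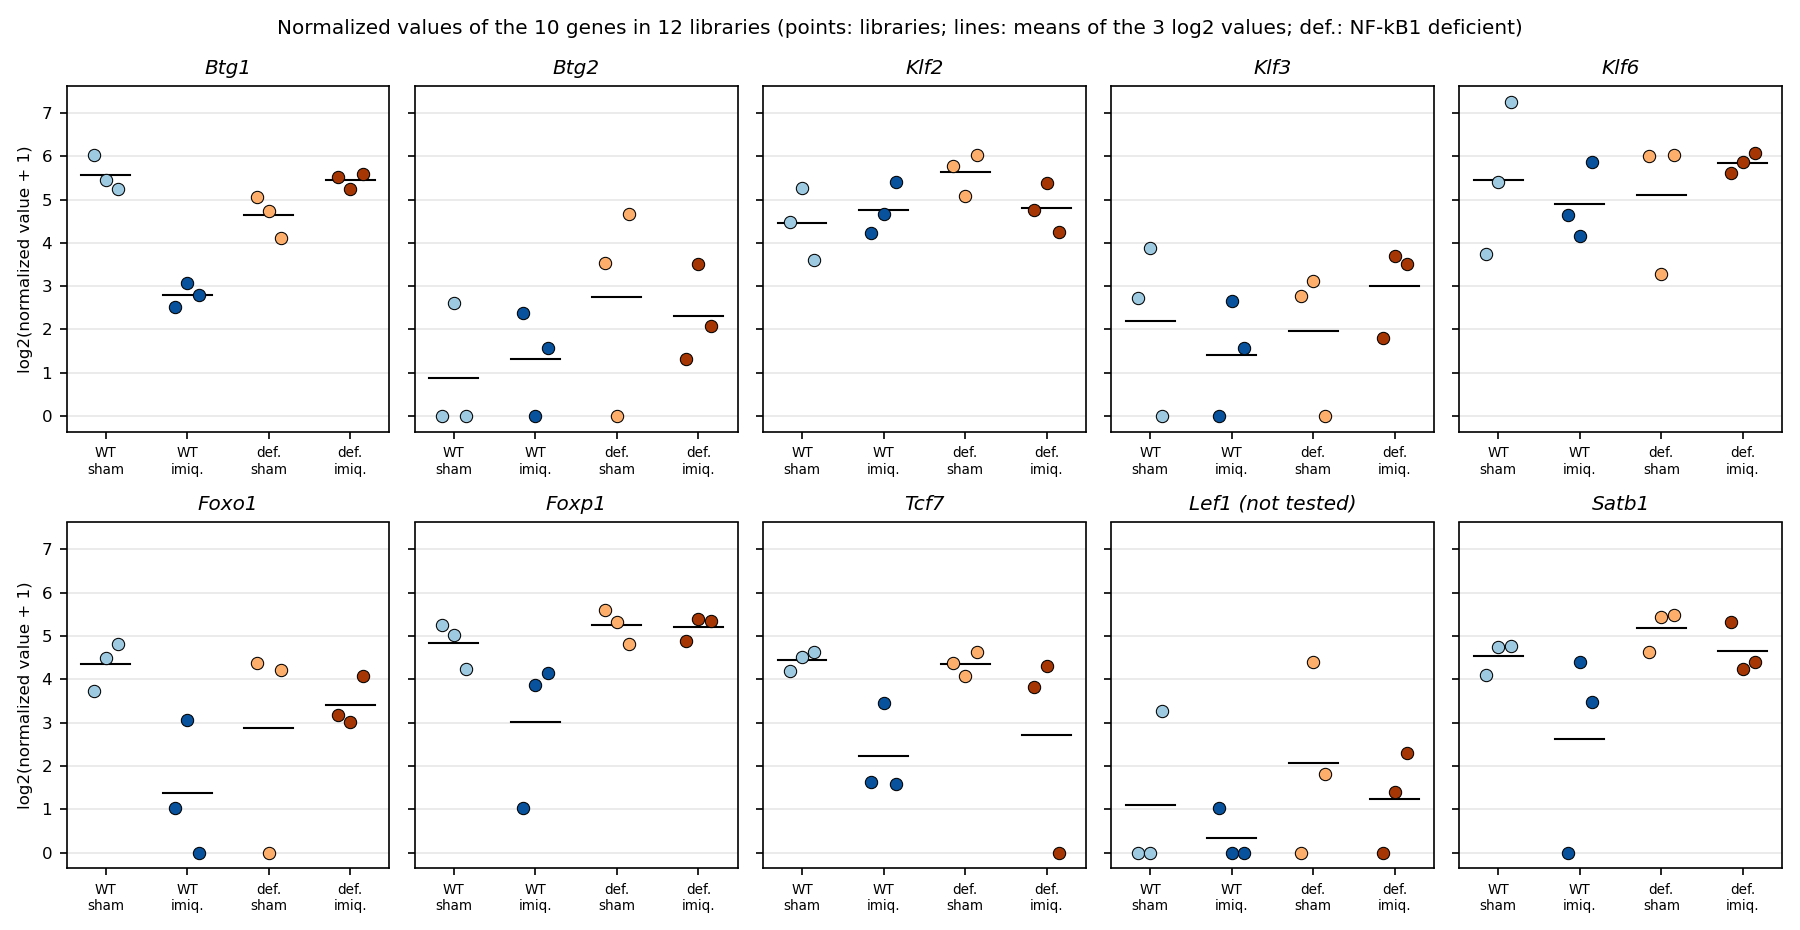
Normalized values of the 10 genes on the log2(value + 1) scale (y axis) in the 4 groups (x axis), with 1 point per library and a line at the mean of the 3 log2 values. Btg1 in wild-type imiquimod lies apart from all other libraries, and Foxo1, Foxp1 and Tcf7 lie below wild-type sham there, while Klf2 and Klf6 overlap between treatments.

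Btg1 (Entrez 12226; chromosome 10, 96617001 to 96622813, plus strand, protein coding) was the member that changed in the most comparisons. Its normalized values were 64.3, 42.7 and 36.6 in wild-type sham and 4.72, 7.37 and 5.94 in wild-type imiquimod. In NF-kB1-deficient mice the sham libraries held 32.4, 25.6 and 16.4 and the imiquimod libraries 44.8, 36.7 and 47.4. The wild-type imiquimod libraries were the lowest 3 of the 12, the NF-kB1-deficient sham libraries came next, and the remaining 6 overlapped with one another. The wild-type imiquimod values rest on 4.5, 7.0 and 3.0 implied reads, and the NF-kB1-deficient imiquimod values on 89.4, 52.5 and 73.0.

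Btg1 fell with imiquimod in wild-type cells, by a log2 fold change of -2.78 ± 0.60 (SE, on log2(normalized value + 1), n = 3 libraries a group; limma adjusted p = 0.00108). It was higher in NF-kB1-deficient than in wild-type cells under imiquimod, by 2.66 ± 0.60 (adjusted p = 0.00510). In NF-kB1-deficient cells its fold change with imiquimod was 0.81 ± 0.60 (adjusted p = 0.996), with 3 of 3 imiquimod libraries above all sham libraries. Between genotypes in sham it was -0.94 ± 0.60 (adjusted p = 0.931), with the deficient libraries below all wild-type ones. The difference between both imiquimod responses was 3.59 ± 0.84 (95% interval 1.93 to 5.26; limma adjusted p = 0.0113). The lower sham values of the deficient mice enter this difference along with the higher imiquimod values.

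Btg2 (Entrez 12227; chromosome 1, 134074865 to 134079155, minus strand, protein coding), the close relative of Btg1 and a known target of p53, was low and uneven. Its normalized values were 0, 5.13 and 0 in wild-type sham, 4.19, 0 and 1.98 in wild-type imiquimod, 10.7, 0 and 24.5 in NF-kB1-deficient sham, and 1.50, 10.5 and 3.24 in NF-kB1-deficient imiquimod. Every group overlapped every other. Its fold change with imiquimod in wild-type cells was 0.45 ± 1.41 (adjusted p = 0.888), with a 95% interval from -2.33 to 3.22 that leaves its direction unresolved.

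Klf2 (Entrez 16598; chromosome 8, 72319062 to 72321654, plus strand, protein coding), the factor that sustains S1pr1 in resting T cells, was called in no comparison. Its normalized values were 21.2, 37.6 and 11.2 in wild-type sham and 17.8, 24.2 and 41.6 in wild-type imiquimod. They were 53.7, 32.9 and 64.2 in NF-kB1-deficient sham and 26.0, 40.5 and 18.2 in NF-kB1-deficient imiquimod. Treatments and genotypes overlapped in all 4 comparisons. The fold change with imiquimod in wild-type cells was 0.32 (95% interval -0.76 to 1.40; adjusted p = 0.794), which does not reach the value of Btg1. In sham Klf2 stood 1.18 ± 0.55 higher in deficient cells on the log2 scale, with an unadjusted p of 0.0332 and an adjusted p of 0.809.

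Klf3 and Klf6 also overlapped between all groups. Klf3 (Entrez 16599; chromosome 5, 64803521 to 64832901, plus strand, protein coding), a repressor that shares CACCC-type sites with Klf2, had values of 5.59, 13.7 and 0 in wild-type sham and of 0, 5.26 and 1.98 in wild-type imiquimod. The deficient libraries held 5.88, 7.66 and 0 of Klf3 in sham, then 2.50, 11.9 and 10.4 under imiquimod. Klf6 (Entrez 23849; chromosome 13, 5861489 to 5870393, plus strand, protein coding), a widely expressed early-response factor, had values of 12.3, 41.1 and 152 in wild-type sham and of 24.1, 16.8 and 57.4 in wild-type imiquimod. In NF-kB1-deficient mice the sham libraries held 63.4, 8.76 and 64.8 of Klf6 and the imiquimod libraries 48.1, 57.3 and 66.8. Klf6 spread widely within 3 of the 4 groups, and its log2 fold change with imiquimod in wild-type cells, -0.57, turned to 0.33 without wild-type sham replicate 3. Without 1 library it ran from -1.44 to 0.33.

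Foxp1 (Entrez 108655; chromosome 6, 98925342 to 99522746, minus strand, protein coding), the forkhead repressor that keeps naive T cells from responding, was the other member that changed. Its normalized values were 36.9, 31.7 and 17.9 in wild-type sham and 1.05, 13.7 and 16.8 in wild-type imiquimod, the latter resting on 1.0, 13.0 and 8.5 implied reads. In NF-kB1-deficient mice the sham libraries held 47.8, 39.4 and 27.2 and the imiquimod libraries 28.8, 40.8 and 39.9. Wild-type imiquimod lay below each of the other groups, by a narrow gap of 16.8 against 17.9 to wild-type sham, and the other 3 groups overlapped. Foxp1 was higher in NF-kB1-deficient than in wild-type cells under imiquimod, by 2.19 ± 0.62 on the log2 scale (SE; 95% interval 0.96 to 3.42; limma adjusted p = 0.0424). With imiquimod in wild-type cells the fold change was -1.82 ± 0.62 (adjusted p = 0.0835), and in deficient cells -0.04 ± 0.62. The difference between the responses was 1.77 ± 0.88 (unadjusted p = 0.0464, adjusted p = 0.458). The call under imiquimod was lost without wild-type imiquimod replicate 1 (1.20, adjusted p = 0.365), which has the single read.

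Foxo1 (Entrez 56458; chromosome 3, 52268337 to 52350109, plus strand, protein coding), which Akt expels from the nucleus in activated T cells, passed the threshold in no comparison. Its normalized values were 12.3, 21.5 and 27.3 in wild-type sham and 1.05, 7.37 and 0 in wild-type imiquimod, or 1, 7 and 0 implied reads. They were 19.9, 0 and 17.6 in NF-kB1-deficient sham and 8.01, 7.10 and 15.8 in NF-kB1-deficient imiquimod. The wild-type groups did not overlap, and a single sham library at 0 makes the deficient groups overlap. The fold change with imiquimod in wild-type cells was -2.98 ± 1.09 (unadjusted p = 0.00680, adjusted p = 0.103). The difference between the responses was 3.54 ± 1.54 (unadjusted p = 0.0229, adjusted p = 0.362).

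Tcf7 (Entrez 21414; chromosome 11, 52246527 to 52283383, minus strand, protein coding), which encodes TCF-1, was even across the sham libraries. Its normalized values were 17.3, 21.7 and 23.6 in wild-type sham and 19.9, 15.9 and 23.9 in NF-kB1-deficient sham. Under imiquimod they were 2.10, 10 and 1.98 in wild-type and 13.3, 18.9 and 0 in deficient cells. All wild-type imiquimod libraries lay below both sham groups, and so did 2 of the 3 deficient imiquimod libraries. The fold changes with imiquimod were -2.22 ± 0.97 in wild-type cells (adjusted p = 0.164) and -1.65 in deficient cells, both negative and neither past the threshold. Under imiquimod the genotypes differed by 0.49 on the log2 scale, with overlap, a value that turned to -0.30 or rose to 1.85 with 1 library left out.

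Lef1 (Entrez 16842; chromosome 3, 131110297 to 131224357, plus strand, protein coding), the partner of Tcf7, had a mean of 3.17 over the 12 libraries and was not tested. The table lists it at 0, 0 and 8.70 in wild-type sham, and at 1.05, 0 and 0 in wild-type imiquimod. The deficient libraries held 0, 20.3 and 2.52 in sham, then 0, 1.64 and 3.89 under imiquimod. At this depth no direction can be read for it.

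Satb1 (Entrez 20230; chromosome 17, 51736187 to 51833290, minus strand, protein coding), whose start region is printed above with its NF-kB consensus match, had values of 16.1, 26.0 and 26.4 in wild-type sham and of 0, 20 and 10.2 in wild-type imiquimod. In NF-kB1-deficient mice the sham libraries held 23.7, 42.6 and 43.8 and the imiquimod libraries 39.2, 17.8 and 20.1. Treatments overlapped in both genotypes, in wild-type cells through replicate 2 of imiquimod and in deficient cells through replicate 1. The log2 fold change with imiquimod was -1.92 ± 0.72 in wild-type cells (adjusted p = 0.112) and -0.53 in deficient cells. Under imiquimod the deficient libraries stood 2.03 ± 0.72 higher (unadjusted p = 0.00532, adjusted p = 0.145), and without wild-type imiquimod replicate 2 this was called (2.91, adjusted p = 0.0245).

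Read against all tested genes, the 9 tested members stood to the lower side in wild-type imiquimod. With imiquimod in wild-type cells 1 of the 9 was called lower, Btg1, against a background of 1.59% of 1571 genes called lower and 3.25% called either way. At an unadjusted p under 0.05 there were 5 of the 9, against 19.9% of all tested genes. Negative fold changes were found for 7 of the 9, against 51.9%, with a median log2 fold change of -1.82 against -0.07. In 4 of the 9 (Btg1, Foxo1, Foxp1 and Tcf7) all imiquimod libraries lay below all sham libraries, against 10.8% of tested genes. These counts describe genes chosen with earlier results known and carry no test of their own. Btg2 passed the filter only through NF-kB1-deficient sham and Klf3 only through NF-kB1-deficient imiquimod, the groups where each is highest, and Lef1 is outside it.

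In NF-kB1-deficient cells limma called none of the 9 with imiquimod (0 called, against 0% of all tested genes). At an unadjusted p under 0.05 there were also 0 of the 9, against 53 of 1571 genes. The median was -0.04 against 0.14, and 1 member, Btg1, had imiquimod libraries all above sham, against 6.11% of genes. Between the genotypes in sham 0 of the 9 were called, against 0%, and 1 member, Klf2, had an unadjusted p under 0.05, against 6.11% of genes. Their median was -0.08 against -0.02, and Btg1 was the 1 member lower without overlap, against 4.65%.

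Under imiquimod the genotypes differed for Btg1 and Foxp1, so 2 of the 9 were called higher in deficient cells, against 1.27% of tested genes called higher. All 9 fold changes were positive, against 53.7% of genes, though that of Klf2 was 0.03 and that of Tcf7 turned negative with a pseudocount of 0.1, with a median of 1.59 against 0.14. Only Btg1 and Foxp1 had groups that did not overlap, 2 of the 9 against 10.8% for genes higher in deficient cells. In the difference between the responses 1 of the 9 was called, Btg1, against 0.191% of genes called in that direction. Positive differences were found for 7 of the 9, against 55% of genes, Btg2 and Klf2 being the negative ones. The comparisons share groups, so their values for a gene are not independent of each other. With every library scaled to 1 total, the median over all tested genes moved from -0.07 to -0.25 with imiquimod in wild-type cells, and no member's direction turned.

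**Figure D2:**
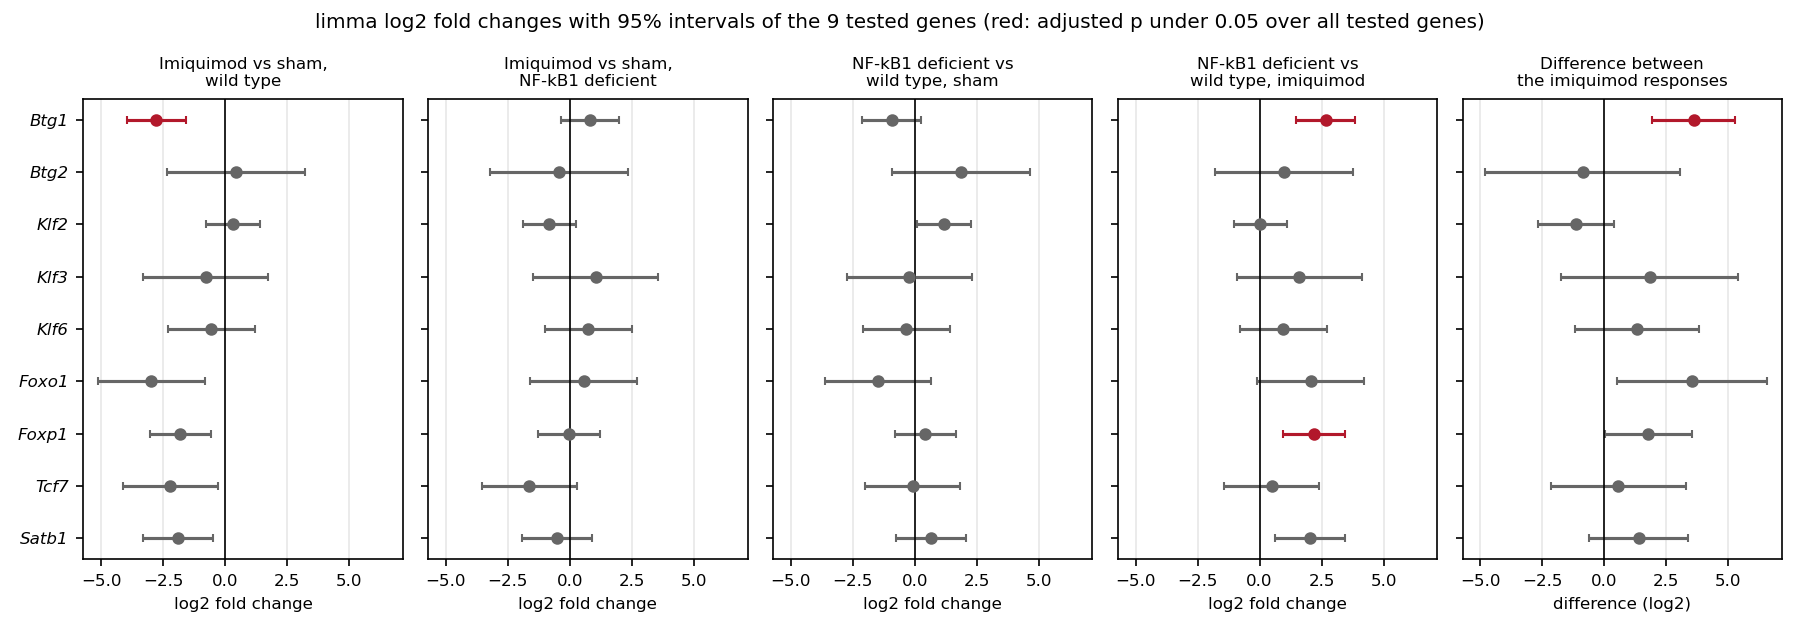
limma log2 fold changes (x axis, on log2(normalized value + 1)) with 95% intervals for the 9 tested genes (y axis) in the 4 comparisons and the difference between the responses, with genes called at an adjusted p under 0.05 in red. Btg1 is called in 3 panels and Foxp1 in 1, and Klf2 lies near 0 in the wild-type imiquimod panel (0.32).

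Genes that Klf2, Foxo1 or Tcf7 are known to regulate had negative fold changes in wild-type cells too. Of 13 such genes 12 were tested, and all 12 had negative fold changes with imiquimod in wild-type cells. Among all tested genes 51.9% did (median -1.84 against -0.07). There limma called 0 of the 12, against 3.25% of all tested genes, and 7 had an unadjusted p under 0.05, against 19.9%. In deficient cells 7 were positive and 5 negative (median 0.35). Under imiquimod 11 of the 12 stood higher in deficient cells (median 2.24), against 53.7% of all tested genes (median 0.14), and 2 were called higher, against 1.27%. Bach2 and Ly6c1 pass the filter only with the deficient libraries, where they are high. Ccr7 passes only with deficient sham and Id3 only with wild-type sham. The signs of these genes are therefore partly set by the filter. Bcl2, which protects resting lymphocytes from apoptosis, was at 1.57, 5.26 and 0 in wild-type and 27.9, 26.5 and 27.5 in deficient imiquimod libraries, a log2 difference of 3.48 ± 0.92 (adjusted p = 0.0252). Il7r, the interleukin-7 receptor chain that Foxo1 sustains, was at 10.5, 11.6 and 1.98 against 35.3, 48.5 and 27.9 (2.31 ± 0.67, adjusted p = 0.0460). Neither pair of groups overlapped. With other settings or 1 library left out, Bcl2 was called in 12 of 19 and Il7r in 9 of 20, the fold staying positive. Leaving out replicate 3 of wild-type imiquimod, or any replicate of deficient imiquimod, ended the call of both, with adjusted p up to 0.182 for Bcl2 and 0.316 for Il7r. Leaving out replicate 2 of wild-type sham or replicate 1 of deficient sham also ended that of Il7r. In wild-type sham Il7r was at 6.15, 43.7 and 62.5 and Bcl2 at 16.6, 26.7 and 1.86, each with 1 library inside the wild-type imiquimod range. Ly6c1 and Ly6c2, both on the list, are near-identical and may share reads.

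S1pr1, the receptor by which lymphocytes leave lymph nodes, is on the same list and was not called. Its values were 11.4, 27.1 and 38.6 in wild-type sham and 0, 22.1 and 20.8 in wild-type imiquimod (log2 fold change -1.59), with overlap. Under imiquimod the genotypes overlapped too.

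Other regulators of T cell quiescence, 10 of 20 tested, also had 10 negative fold changes with imiquimod in wild-type cells (median -1.78) and 10 positive differences between genotypes under imiquimod (median 1.99), beside the same shares of all genes. With imiquimod in wild-type cells 1 of them was called lower, against 1.59% of all tested genes. This was Fam65b, a negative regulator of RhoA in resting T cells. It was at 15.7, 14.6 and 38.5 in wild-type sham and 1.05, 0 and 0 in wild-type imiquimod (-4.10 ± 1.08, adjusted p = 0.0145). Its call was kept in 16 of 19 settings and lost without wild-type sham replicate 3 (adjusted p = 0.106). Ikzf1, the Ikaros zinc finger factor, was at 44.2, 37.9 and 33.4 in wild-type sham and 8.39, 9.47 and 21.8 in wild-type imiquimod (-1.59), without overlap. Of these 10 genes 6 had negative fold changes with imiquimod in deficient cells (median -0.35). Ets1, another of the 10, was at 28.3, 59.0 and 0 in wild-type imiquimod and 19.0, 26.4 and 36.0 in wild-type sham. Deficient imiquimod held 25.8, 18.2 and 27.9 of Ets1. Its sign in both tallies above thus rests on replicate 3 of wild-type imiquimod.

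The families and partners of the members were mostly too low to test. Of 16 CCR4-NOT and partner genes, through which Btg proteins act, 4 were tested. With imiquimod in wild-type cells 0 of the 4 were called, against 3.25% of all tested genes, with a median of 0.53 and both signs present. Pabpc1, the poly(A)-binding protein, had 1.14 ± 0.45 (limma adjusted p = 0.133), and Cnot9, a subunit of the complex, 1.84 ± 0.88 (adjusted p = 0.215). Cnot6l, a deadenylase, had -2.12 ± 0.85 (limma adjusted p = 0.133). Its imiquimod libraries all lay below sham, as did those of 10.8% of all tested genes. Cnot9 was at 8.8, 4.4 and 6.0 in wild-type sham and 11.6, 12.5 and 97.1 in wild-type imiquimod. Its replicate 3 there stood far above replicates 1 and 2. Of the other Klf genes 2 of 14 were tested, Klf13 (-1.57) and Klf7 (-1.60), neither called, and 9 of 14 were at 0 in all libraries. Among Tcf/Lef partners Ctnnb1, Tle3 and Aes were tested, with a median of -0.59 and 0 called, against the same 3.25%. With so few genes tested in each list, 0 called cannot be told apart from that share. Klf7 and Aes would each fail the filter without wild-type sham, or without deficient imiquimod, so their signs are partly set by the filter. Of the Btg and Tob relatives only Tob2 was tested (0.30), and none of the 6 other Foxo and Foxp genes was.

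Cell division markers were higher in the same libraries. The 20 listed markers summed to 25.5 to 40.3 normalized units in wild-type sham, 209 to 390 in wild-type imiquimod, 33.8 to 81.6 in deficient sham and 28.6 to 129 in deficient imiquimod. Of the 11 that were tested, 3 were called higher with imiquimod in wild-type cells, Birc5, Mcm7 and Top2a, against 26 of 1571 tested genes. These 3 are among 8 of the 11 that passed the filter only through the wild-type imiquimod libraries, and a gene that passes this way is bound to be higher there. Tcrd also fell with imiquimod in wild-type cells (-1.73 ± 0.43, adjusted p = 0.00906), from 65.8, 68.7 and 76.8 to 14.2, 30.5 and 19.8. Birc5, Mcm7 and Top2a were called in 12, 7 and 11 of 19 alternatives, and Tcrd in 15 of 20, all with the same sign. The part of these changes in the values of the 10 genes was not tested.

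**Figure D3:**
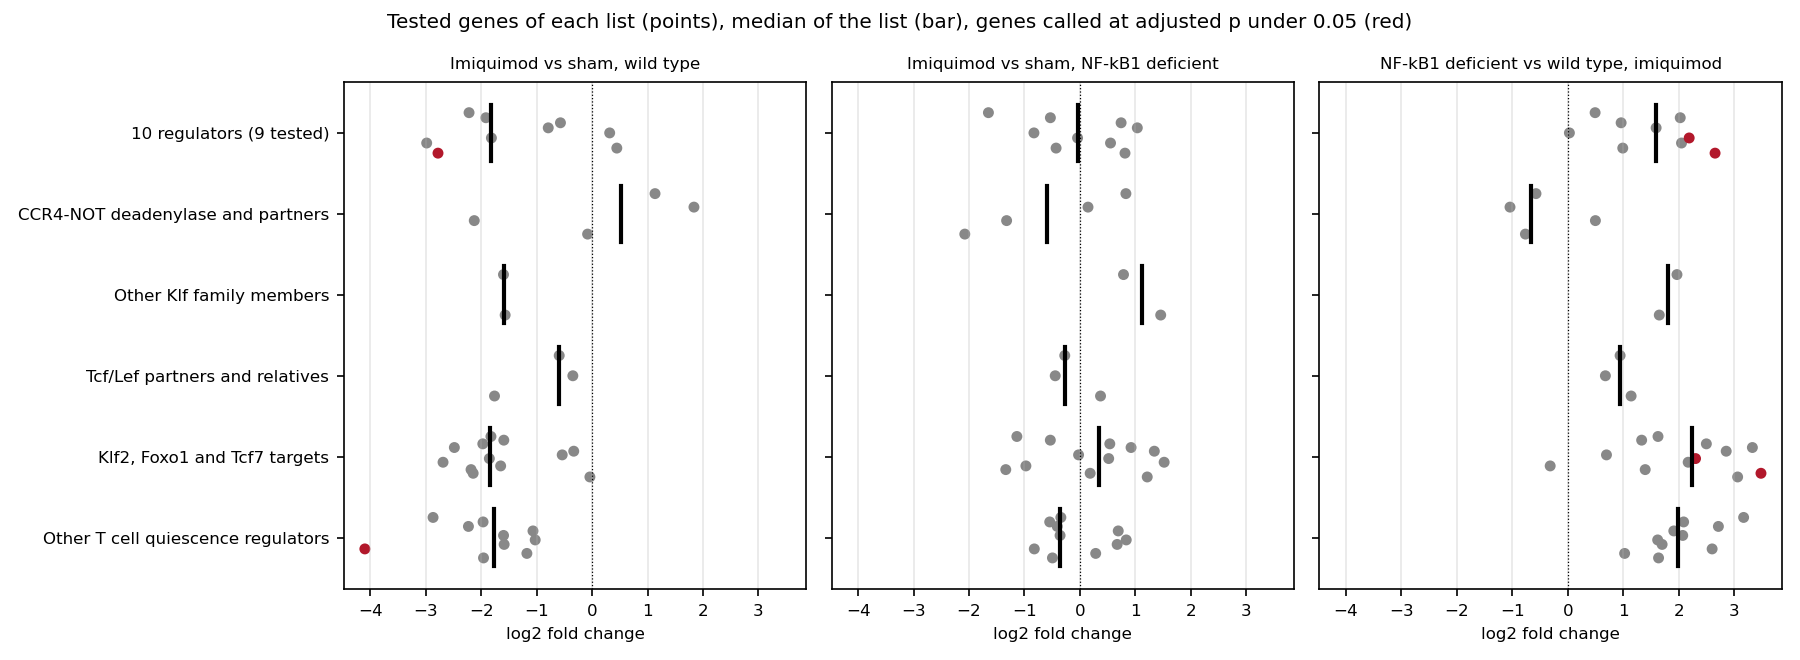
Log2 fold changes (x axis) of the tested genes of 6 lists (y axis) in 3 comparisons, 1 point per gene with a bar at the list's median and called genes in red. In wild-type cells the 10 regulators, the targets and the other quiescence regulators lie mostly below 0 (medians -1.82, -1.84 and -1.78).

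The 9 tested members did not form 1 pattern across libraries. Over the 12 libraries, which share depth and group differences, Pearson's r between members on the log2 scale ran from -0.31 (Klf3 with Klf6) to 0.86 (Foxp1 with Satb1) over 36 pairs, with a median of 0.32. Of all tested genes, Tgfbr2, a receptor of TGF-beta, and Tcrd had the patterns most like Btg1 (r = 0.929 and 0.924). Foxp1 was most like Pik3ip1, an inhibitor of PI3-kinase (0.905), and the kinase gene Jak1 (0.890). Foxo1 was most like Atp2b1 (0.927) and Kmt2a (0.902), Tcf7 like Actn1 (0.904) and Osbpl8 (0.843), and Satb1 like Cytip (0.926) and S1pr1 (0.922). The nearest genes of the other members were Arhgef6 (0.876) and Ttc7 (0.846) for Klf2, Neat1 (0.870) and Strn3 (0.832) for Klf3, Akap8 (0.841) and Rpsa (0.828) for Klf6, and Mgat2 (0.839) and Ywhab (0.825) for Btg2. Each was picked as the highest over all tested genes and is given as a description.

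The calls on Btg1 and Foxp1 differ in how far they hold. Btg1 stayed called in wild-type cells with any 1 library left out (adjusted p 0.000687 to 0.0286), and was not called without a filter (0.0593) or without trend and robust (0.0519). Its difference between genotypes under imiquimod was not called without NF-kB1-deficient imiquimod replicate 3 (adjusted p = 0.0537). Its difference between the responses lost its call when replicate 1 of wild-type sham (0.0798) or replicate 3 of deficient sham (0.0599) was left out, and likewise for replicate 1 (0.0673) or 3 (0.0800) of deficient imiquimod. With no filter and without trend and robust the adjusted p of Btg1 was 0.283 and 0.173 between genotypes under imiquimod, and 0.758 and 0.222 for the difference between the responses. Foxp1 was called in 9 of 20 alternatives, all with a positive fold change. Besides the library with the single read, leaving out replicate 2 of wild-type sham (adjusted p = 0.0537), replicate 1 of deficient sham (0.0600) or replicate 1, 2 or 3 of deficient imiquimod (0.0898, 0.316 and 0.171) ended its call. Without wild-type imiquimod replicate 2, Satb1 (-2.80, adjusted p = 0.0198), Foxo1 (-3.83, 0.0416) and Foxp1 (-2.24, 0.0361) were called lower with imiquimod in wild-type cells. Without wild-type imiquimod replicate 3, Foxp1 was (-2.38, 0.0265).

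**Figure D4:**
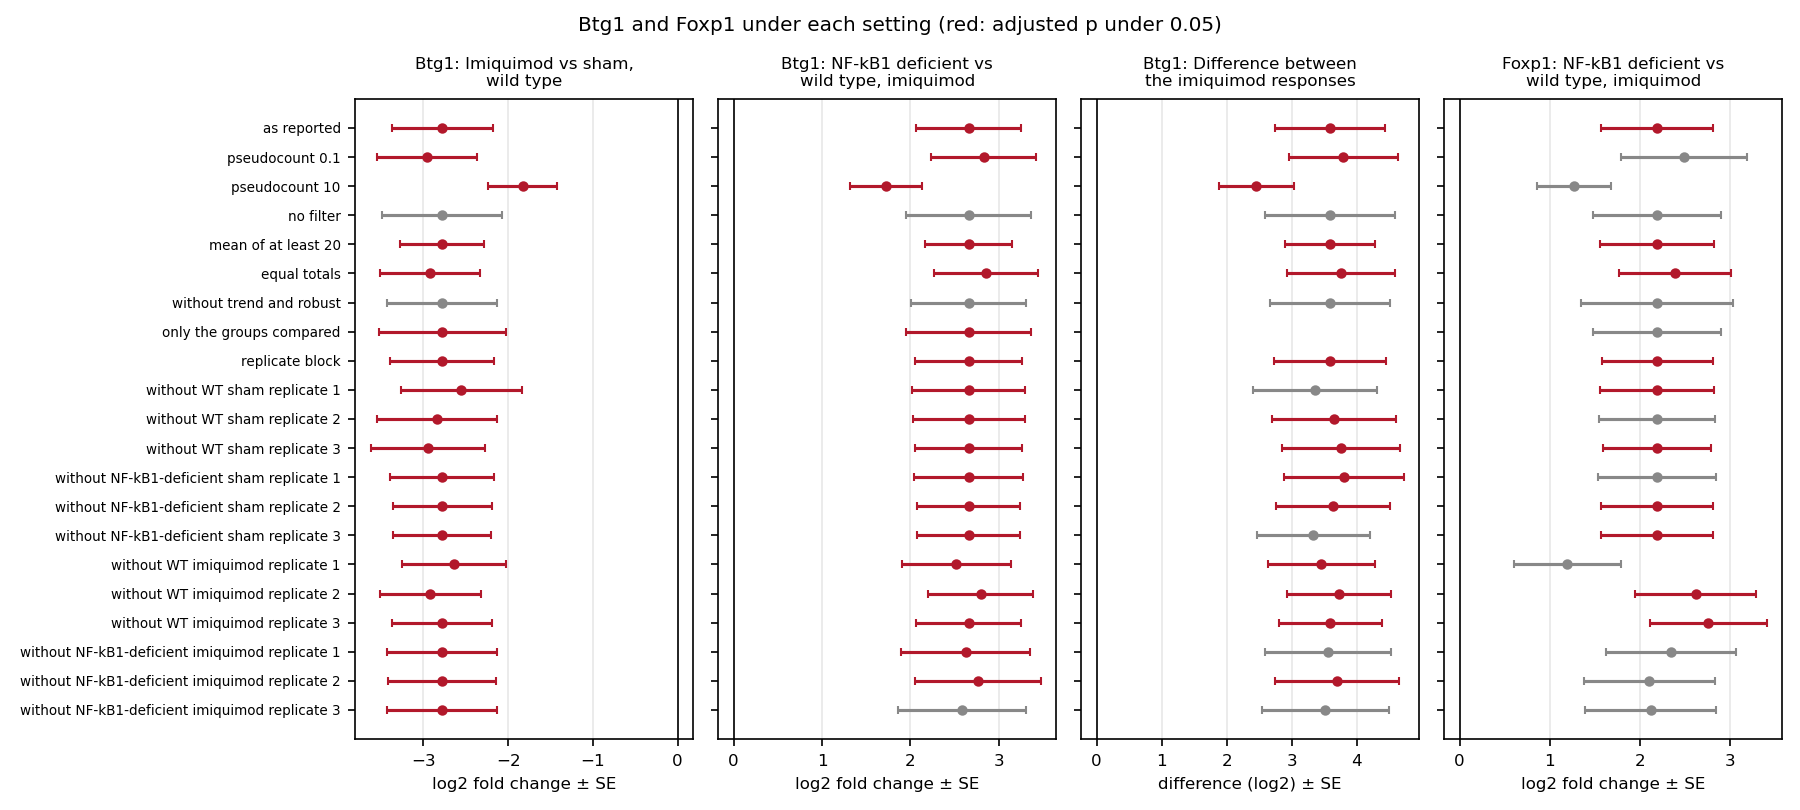
Log2 fold change ± SE (x axis) of Btg1 in 3 comparisons and of Foxp1 in 1 under each setting (y axis), in red where the adjusted p was under 0.05. No value crosses 0, and Foxp1 drops to 1.20 without wild-type imiquimod replicate 1.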

How the data were processed

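The authors deposited log2 normalized read counts for 45796 genes in 12 libraries, made from Trizol RNA with QuantSeq 3' FWD (per the labels' protocols). This method reads 1 fragment near the 3' end of a transcript, so values do not scale with length. Per the submitters' processing notes the build was mm10, and the sources used here do not give the aligner, counter or normalization. Values were taken back to the linear scale (normalized value), with 0 kept as listed at 0. Steps of the low values gave the reads behind each value. Only 71.2% to 80.2% of values under 20 reads lay within 0.01 read of a whole number, so no count test was run.

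limma 3.58.1 (R 4.3.3) was fitted to log2(normalized value + 1), with a coefficient per group, trend and robust (8 residual and a median of 145 prior degrees of freedom), over the 1571 genes with a mean of at least 5. p-values were adjusted by Benjamini-Hochberg over these genes within each comparison, and a gene was called under 0.05. Fold changes on this scale understate those of low genes. Sums, correlations and motif matches were computed with Python 3.11.15, pandas 2.3.3 and numpy 2.4.6, with start regions from RefSeq (GRCm38.p6). The fit was tested on simulated data of 1588 genes with 200 planted to change in the wild-type imiquimod libraries, at a dispersion of 0.3 for every gene. It called 22 of 38 genes lowered 8-fold, 16 of 39 lowered 4-fold, 16 of 50 raised 4-fold and 42 of 50 raised 8-fold. These rates depend on the dispersion chosen. Planted genes that fell below the filter are not counted, so the rates for lowered genes hold only for those still tested.

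The members, the 14 lists (162 genes) and the comparisons were chosen with earlier results of these data known. The text names all members, the called genes of each list or up to 3 of its most abundant tested genes, and the 2 genes most like each tested member. Ikzf1 and Ets1 were named after their values were seen. Some list members are not reported here by name. The alternatives were pseudocounts of 0.1 and 10, no filter, a mean of at least 20, equal totals, no trend or robust, only the groups compared, a replicate block and leaving out each library.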

Additional observations from a re-analysis of the deposited data

Results flagged for a closer look

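The response of Btg1 to imiquimod differed between the genotypes, tested as an interaction term in limma. The difference was 3.59 ± 0.84 on the log2 scale (adjusted p = 0.0113), with all 3 wild-type imiquimod libraries below wild-type sham and all 3 NF-kB1-deficient imiquimod libraries above their own sham. The response in deficient cells alone did not pass the threshold (0.81 ± 0.60, adjusted p = 0.996). The difference stayed positive in all 19 alternatives and was called in 13 of them, with a limma adjusted p of up to 0.758. The wild-type imiquimod values rest on 4.5, 7.0 and 3.0 implied reads, and the deficient imiquimod values on 89.4, 52.5 and 73.0.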

How the results depend on the processing

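Over 45 fold changes of the 9 tested members and 838 alternatives, 786 kept their direction and their side of the threshold, 25 turned their direction, 22 lost a call and 5 gained one. None of the 25 turned a called value, and 21 of them left out 1 library. The number of members called with imiquimod in wild-type cells went from 1 to 0 with no filter and without trend and robust, and was 1 to 4 with 1 library left out. Between genotypes under imiquimod it went from 2 to 1 with a pseudocount of 0.1 or 10 or with only the groups compared, to 0 with no filter and without trend and robust, and was 0 to 3 with 1 library left out. In the difference between the responses it went from 1 to 0 with no filter and without trend and robust, and was 0 to 1 with 1 library left out. With a pseudocount of 0.1, Btg2 with imiquimod in deficient cells was 0.37, and Tcf7 was -0.29 between genotypes under imiquimod and -0.21 in the difference between the responses. With a pseudocount of 10, Foxo1 with imiquimod in deficient cells was -0.018. With 1 library left out, fold changes with imiquimod in wild-type cells ran from -0.11 to 0.73 for Klf2, from -1.44 to 0.33 for Klf6 and from -0.084 to 1.32 for Btg2. With imiquimod in deficient cells they ran from -0.26 to 0.14 for Foxp1, from -0.17 to 1.21 for Klf6, from -0.88 to 1.31 for Foxo1 and from -1.80 to 0.064 for Btg2. In sham they ran from -1.33 to 0.75 for Klf3, from -0.21 to 0.069 for Tcf7 and from -1.22 to 0.56 for Klf6. Under imiquimod they ran from -0.26 to 0.35 for Klf2 and from -0.30 to 1.85 for Tcf7, and in the difference between the responses from -0.23 to 1.93 for Tcf7. The cause was not tested. Over all genes the calls numbered 51 (11 to 73) with imiquimod in wild-type cells, 28 (0 to 42) between genotypes under imiquimod and 7 (0 to 13) in the difference between the responses. In the first of these, equal totals gave 19 higher and 29 lower in place of 26 and 25. Whether replicate numbers pair the samples could not be settled. Over 18 same-numbered pairs the correlation of deviations was -0.01 to 0.061 (median 0.016). Over 36 other pairs it was -0.064 to 0.037 (median -0.004), with 0 above 0.1 in either set. At this depth read noise can hold such correlations near 0 with or without pairing. With the replicate block the members called numbered 1 with imiquimod in wild-type cells, 0 in deficient cells, 0 between genotypes in sham, 2 under imiquimod and 1 in the difference between the responses, as without it. Depth limits what can be read of Btg2, Klf3 and Lef1. It also limits the wild-type imiquimod values of Btg1, Foxp1 and Foxo1, whose implied reads are given above. The same holds there for Tcf7 (2.0, 9.5 and 1.0 implied reads) and Satb1 (0, 19.0 and 5.1).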
